A study of Mus musculus with 4 samples.

Results

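The nuclear genes of oxidative phosphorylation were examined in Ter119+ bone marrow cells of Med16 KO and Med16 fl/fl mice. Members were taken by symbol: the Nduf genes of complex I, the 4 succinate dehydrogenase genes of complex II, the Uqcr genes and Cyc1 of complex III, the Cox4 to Cox8 genes of complex IV and the Atp5 genes of complex V, without symbols that contain -ps. The rule took 92 of 56691 gene rows. Of these, 80 passed the filter on low counts and were tested, among 13052 genes tested in all. Ndufa4 and Ndufa4l2 carry a complex I name but were placed in complex IV, where the Ndufa4 protein is known to reside.

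The study compared 2 poly(A) RNA libraries labelled Med16 KO with 2 libraries labelled Med16 fl/fl, the floxed control. All 4 came from mouse bone marrow, with a time label of 3 weeks and a stage label of erythroid, and Ter119 marks cells of the red cell lineage. MED16 is part of Mediator, through which transcription factors act on RNA polymerase II. The Cre driver, the deleted exons and the letters DK in the titles of the KO libraries are not explained in the labels. Separate animals are not stated for libraries that share a genotype, so each p-value measures a spread that may be technical.

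The KO libraries held 6948951 and 6749196 counts assigned to genes, and the fl/fl libraries held 7216333 and 7048208. Levels are given as TMM-scaled CPM, counts divided by library size, so that 1 count was worth between 0.140 and 0.147 CPM. Med16 itself had 2.25 and 4.41 CPM in the KO libraries, against 23.2 and 18.4 CPM in the fl/fl libraries (log2 fold change -2.64, SE 0.34, edgeR quasi-likelihood test with Benjamini-Hochberg adjustment, adjusted p = 4.6e-05), so the libraries followed their labels. Library pairs differed beyond counting noise, with a chi-square per degree of freedom of 6.63 within KO and 2.73 within fl/fl. The 8 erythroid markers summed to 164008 and 168199 CPM in the KO libraries and 172011 and 165544 CPM in the fl/fl libraries, and of the 8 tested, 2 were higher and 6 lower. The 12 neutrophil markers summed to 20024 and 20549 CPM in the KO libraries and 14435 and 14273 CPM in the fl/fl libraries, and all 12 rose. The monocyte and macrophage markers summed to 3080 and 3120 CPM in the KO libraries and 2285 and 2203 CPM in the fl/fl libraries, with 3 of 9 higher and 1 lower.

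Oxidative phosphorylation passes electrons from NADH, through complex I, or from succinate, through complex II, to coenzyme Q, then through complex III to cytochrome c and through complex IV to oxygen. Complexes I, III and IV pump protons across the inner mitochondrial membrane, and complex V, the ATP synthase, uses the return flow of protons to make ATP. Most subunits are encoded in the nucleus and imported, and a small set is encoded in mitochondrial DNA. Erythroid precursors need active mitochondria for haem synthesis and clear these organelles as they mature into red cells.

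The promoters of 4 members are printed because they place Atp5g2, the called member with the largest fold change, beside its paralogs Atp5g1 and Atp5g3, which encode the same mature c subunit, and beside Ndufb7, the called member of complex I. The sequences come from RefSeq promoter windows of build GRCm38.p6 and show the 250 bases before each gene's start, 5′ to 3′ on the gene's strand. Capitals mark matches to 6 motifs searched on both strands, and matches may overlap. Positions count back from the start, with -1 the base before it, and refer to the first base of the match.
Atp5g2, chr15:102671048-102671297, minus strand: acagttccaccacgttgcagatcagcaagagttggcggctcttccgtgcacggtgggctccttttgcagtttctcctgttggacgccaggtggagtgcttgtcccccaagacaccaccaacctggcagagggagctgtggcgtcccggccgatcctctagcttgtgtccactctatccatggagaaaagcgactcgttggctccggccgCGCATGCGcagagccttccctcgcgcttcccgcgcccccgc
Atp5g1, chr11:96075632-96075881, minus strand: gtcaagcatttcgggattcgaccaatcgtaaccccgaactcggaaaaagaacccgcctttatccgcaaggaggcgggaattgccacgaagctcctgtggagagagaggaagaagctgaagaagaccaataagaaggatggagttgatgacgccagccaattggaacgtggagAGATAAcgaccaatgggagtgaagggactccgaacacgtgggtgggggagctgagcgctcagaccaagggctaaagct
Atp5g3, chr2:73911327-73911576, minus strand: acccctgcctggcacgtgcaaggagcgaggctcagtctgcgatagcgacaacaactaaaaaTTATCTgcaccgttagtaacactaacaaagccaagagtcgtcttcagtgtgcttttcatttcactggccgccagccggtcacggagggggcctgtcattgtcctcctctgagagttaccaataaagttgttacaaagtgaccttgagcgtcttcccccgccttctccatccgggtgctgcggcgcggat
Ndufb7, chr8:83566508-83566757, plus strand: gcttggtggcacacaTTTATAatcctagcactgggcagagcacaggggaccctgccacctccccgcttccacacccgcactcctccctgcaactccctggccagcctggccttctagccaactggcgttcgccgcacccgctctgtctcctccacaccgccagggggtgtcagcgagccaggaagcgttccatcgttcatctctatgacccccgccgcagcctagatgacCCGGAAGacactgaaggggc

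The Atp5g2 window held the NRF1 core on both strands, in overlapping matches that begin at -41 and -40. The NRF1 core was not matched in the windows of Atp5g1 and Atp5g3, each of which held 1 match to the GATA motif, at -78 and at -189. The Ndufb7 window held an ETS core at -20 and a TATA box motif on the opposite strand at -235. A match describes the letters of the window and shows no binding.

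Windows of 300 bases, from 250 before to 50 after the start, were found for 70 of the 92 members and gave 74 windows. The ETS core CCGGAAG, read by GABP and related factors, was present in 17 member windows (23.0%) and in 8.86% of all 32851 windows of the table. The NRF1 core GCATGCG, part of the site of nuclear respiratory factor 1, was present in 11 member windows (14.9%) and in 3.58% of all windows. The YY1 motif AAGATGG was likewise present in 11 member windows (14.9%), against 6.34% of all windows. The SP motif GGGCGG stood in 39.2% of member windows and 35.7% of all windows, the TATA box motif TATAAA in 12.2% and 13.6%, and the GATA motif AGATAA in 8.11% and 11.2%. These shares are descriptions, with no test.

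Calls among the nuclear oxidative phosphorylation genes were counted beside those over all genes tested. Of 80 members tested, 6 were called higher and 0 lower (edgeR quasi-likelihood test, adjusted p under 0.05), which is 7.5% and 0%. Over all genes tested the shares were 8.5% higher and 9.89% lower, or 18.4% in either direction, so the share of members called higher was near the background. At an unadjusted p under 0.05, 11 members were higher and 0 lower, and DESeq2 called 4 higher and 0 lower. The called members were Atp5g2, Atp5c1, Atp5d and Atp5a1 of complex V, Ndufb7 of complex I and Cox4i1 of complex IV.

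The changes of members spread less than those of all genes tested. The median log2 fold change of the 80 members was 0.10, with quartiles at -0.07 and 0.19, while the median of all genes tested was 0.02, with quartiles at -0.29 and 0.34. In 53 members the log2 fold change was positive and in 27 it was negative. The extremes were -0.76 in Ndufb2 and 0.67 in Atp5g2, and these were the 2 members whose estimate reached 1.5-fold in either direction. For 53 of 80 members (66.2%) the 95% interval of the fold change lay within 1.5-fold either way, against 27.7% of all genes tested. Members were also more abundant, with a median of 45.3 CPM against 18.2 CPM over all genes tested. The part of abundance in the smaller spread and the narrower intervals was not tested.

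Both KO libraries lay above both fl/fl libraries in 24 members (30.0%), close to the 29.4% of all genes tested. Both KO libraries lay below both fl/fl libraries in 12 members (15.0%), against 28.2% of all genes tested. In the other 44 members the genotypes overlapped.

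The plot of fold changes by complex shows that most intervals cross 0 in every complex. It also shows where precision was low: the widest intervals belong to Ndufb2, whose levels were 0.702 and 1.91 CPM in the KO libraries and 1.84 and 2.61 CPM in the fl/fl libraries, and to Cox6a2.

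Complex I oxidises NADH and is the largest complex of the chain. Of its 36 tested members, 1 was higher (2.78%, against 8.5% of all genes tested) and 0 lower (against 9.89%). The median log2 fold change was 0.05 (24 positive, 12 negative). The interval lay within 1.5-fold either way for 17 of the 36, so changes of that size were not excluded for the other 19.

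The 7 tested subunits of the catalytic core, which carry the flavin and the iron-sulphur clusters, had a median log2 fold change of 0.12, and none was called. Ndufv1, which binds NADH and the flavin and was the most abundant complex I member in CPM, had 103 and 87.7 CPM in the KO libraries, against 83.2 and 92.5 CPM in the fl/fl libraries. The genotypes overlapped in Ndufv1 (log2 fold change 0.12, edgeR adjusted p = 0.504).

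Among the accessory subunits, 9 of the matrix arm had a median log2 fold change of -0.10 with none called, and 20 of the membrane arm had a median of 0.05 with 1 called. The called gene was Ndufb7 (ENSMUSG00000033938.6), an accessory subunit on the intermembrane side of the membrane arm. Ndufb7 had 67.8 and 72.5 CPM in the KO libraries, against 55.1 and 51.5 CPM in the fl/fl libraries. Both KO libraries lay above both fl/fl libraries, by 1.32-fold (95% interval 1.10 to 1.57; log2 fold change 0.40, SE 0.12, edgeR adjusted p = 0.0301).

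The other members with the smallest adjusted p in complex I were not called. Ndufv3, an accessory subunit next to the NADH-binding site, had 25.1 and 28.4 CPM in the KO libraries, against 17.8 and 18.6 CPM in the fl/fl libraries (log2 fold change 0.56, SE 0.20, edgeR adjusted p = 0.0636). Ndufa13, also known as GRIM-19, had 37.6 and 45.01 CPM in the KO libraries, against 34.0 and 27.6 CPM in the fl/fl libraries (0.42, SE 0.17, edgeR adjusted p = 0.103). Neither gene overlapped between genotypes, and neither passed the threshold. Ndufb2 was the member furthest below the median of complex I (log2 fold change -0.76, SE 0.77, edgeR adjusted p = 0.557), and its genotypes overlapped.

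Complex II, succinate dehydrogenase, is the enzyme of the citric acid cycle that feeds the chain directly, and it has no subunit encoded in mitochondrial DNA. None of its 4 members was called, their genotypes overlapped, and all 4 intervals lay within 1.5-fold either way. The flavoprotein gene Sdha had 128 and 131 CPM in the KO libraries, against 131 and 134 CPM in the fl/fl libraries (log2 fold change -0.03, 95% interval -0.20 to 0.14). The iron-sulphur subunit gene Sdhb had 48.9 and 42.7 CPM in the KO libraries, against 41.3 and 44.2 CPM in the fl/fl libraries (log2 fold change 0.10). The membrane anchor genes Sdhc and Sdhd had log2 fold changes of 0.00 and 0.14, and the adjusted p of the 4 members ran between 0.551 and 0.999 (edgeR).

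Complex III passes electrons from coenzyme Q to cytochrome c. None of its 9 members was called, the median log2 fold change was 0.12, and 8 of the 9 intervals lay within 1.5-fold either way. The core protein gene Uqcrc1 had 203 and 181 CPM in the KO libraries, against 168 and 167 CPM in the fl/fl libraries (log2 fold change 0.20, SE 0.08, edgeR adjusted p = 0.0921). Both KO libraries lay above both fl/fl libraries in Uqcrc1, whereas its partner core protein gene Uqcrc2 overlapped, with 79.9 and 91.2 CPM in the KO libraries and 80.7 and 76.4 CPM in the fl/fl libraries.

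In 3 other complex III members (33.3% of the 9, against 28.2% of all genes tested) both KO libraries lay below both fl/fl libraries. The Rieske iron-sulphur protein gene Uqcrfs1 had 84.3 and 97.5 CPM in the KO libraries, against 100.4 and 100.6 CPM in the fl/fl libraries (log2 fold change -0.15, edgeR adjusted p = 0.37). Uqcrb, a subunit near the coenzyme Q site, had 21.8 and 15.2 CPM in the KO libraries, against 22.5 and 25.8 CPM in the fl/fl libraries (-0.39, SE 0.22, edgeR adjusted p = 0.266). The hinge protein gene Uqcrh was the third, with a log2 fold change of -0.11. None of the 3 passed the threshold, and Uqcrb has 3 near-identical copies in the annotation, so its counts are uncertain.

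Complex IV, cytochrome c oxidase, reduces oxygen. Of its 14 tested members, 1 was higher (7.14%, against 8.5% of all genes tested) and 0 lower (against 9.89%). The median log2 fold change was 0.12. The called gene was Cox4i1 (ENSMUSG00000031818.13), the common isoform of subunit 4, a large nuclear subunit that regulates the enzyme. Cox4i1 had 210 and 229 CPM in the KO libraries, against 189 and 189 CPM in the fl/fl libraries. Both KO libraries lay above both fl/fl libraries, by 1.16-fold (95% interval 1.04 to 1.29; log2 fold change 0.22, SE 0.07, edgeR adjusted p = 0.0478). Subunit genes of the same complex were mixed in direction. Of the 14, Cox4i1 among them, 9 log2 fold changes were positive and 5 negative. Both KO libraries lay above both fl/fl libraries in 6 (42.9%, against 29.4% of all genes tested). They lay below in 2 (14.3%, against 28.2%). Cox6c had 66.8 and 70.6 CPM in the KO libraries, against 79.98 and 80.6 CPM in the fl/fl libraries (log2 fold change -0.22, edgeR adjusted p = 0.171), and its genotypes did not overlap either. The ratio of Cox4i1 counts to Cox6c counts was 3.14 and 3.24 in the KO libraries and 2.36 and 2.35 in the fl/fl libraries, a description with no test. The ratio to Cox6a1 counts moved less, with 1.036 and 1.038 in the KO libraries and 0.964 and 0.970 in the fl/fl libraries. With an offset for transcript GC content, described below, the log2 fold changes were 0.00 for Cox4i1 and -0.20 for Cox6c.

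Cox5a, which partners subunit 4, had 58.7 and 50.2 CPM in the KO libraries, against 42.5 and 46.0 CPM in the fl/fl libraries (log2 fold change 0.30, edgeR adjusted p = 0.156). Cox7c, a small membrane subunit, stood furthest below the median of the complex, with 45.9 and 39.0 CPM in the KO libraries, against 58.5 and 43.6 CPM in the fl/fl libraries (-0.27, edgeR adjusted p = 0.292), and its genotypes overlapped.

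Several complex IV positions can be filled by alternative isoforms, and at most of these a widely expressed isoform predominated in all 4 libraries. Cox4i1 gave at least 99.87% of the counts of the Cox4i1 and Cox4i2 pair, Cox4i2 being the isoform linked to low oxygen. Cox6a2, the heart and muscle isoform, gave 0.276% and 1.45% of the Cox6a1 and Cox6a2 counts in the KO libraries and 0.503% and 0.957% in the fl/fl libraries. The muscle isoform gene Cox7a1 was counted 3 and 4 times in the KO libraries and 2 and 5 times in the fl/fl libraries. Cox7b2, Cox8b, Cox8c and Ndufa4l2 had 0 counts in all 4 libraries, which allows up to 3 counts, or between 0.421 and 0.441 CPM, per library.

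The less common isoform held a larger share at subunit 6b, where the testis-associated isoform gene is Cox6b2. Cox6b2 gave 26.7% and 36.5% of the Cox6b1 and Cox6b2 counts in the KO libraries, against 26.4% and 28.2% in the fl/fl libraries. Its level was 24.3 and 34.1 CPM in the KO libraries, against 22.2 and 24.9 CPM in the fl/fl libraries, with overlap (log2 fold change 0.31, SE 0.20, edgeR adjusted p = 0.34). Cox6b1, the common isoform, had 66.8 and 59.3 CPM in the KO libraries, against 62.0 and 63.4 CPM in the fl/fl libraries (0.01). The remaining abundant genes of these sets were not called, with log2 fold changes of 0.11 for Cox6a1, -0.06 for Cox7a2, 0.19 for Cox7a2l, -0.01 for Cox7b, 0.13 for Cox8a and -0.10 for Ndufa4. Of the Cox7a1, Cox7a2 and Cox7a2l counts, Cox7a2l gave 57.4% and 60.8% in the KO libraries and 56.3% and 53.9% in the fl/fl libraries. Per kb of transcript the order was reversed. Cox7a2l then gave 45.1% and 48.57% in the KO libraries and 43.98% and 41.54% in the fl/fl libraries. Cox7a2 gave 54.21% and 50.49% in the KO libraries and 55.52% and 57.3% in the fl/fl libraries.

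Complex V, the ATP synthase, held most of the calls. Of its 17 tested members, 4 were higher (23.5%, against 8.5% of all genes tested) and 0 lower, with a median log2 fold change of 0.10 (11 positive, 6 negative). The calls fell in the F1 part, which joins the catalytic head and the central stalk, with 3 of 5 tested, and in the ring of c subunits, with 1 of 3. None of the other 9 tested members, of the peripheral stalk and the membrane part, was called, and their median was -0.03. The median log2 fold change of complex V was not above that of complex III (0.12) or complex IV (0.12). It was 0.05 in complex I and 0.05 in complex II. The median SE was 0.11 in complex V, 0.11 in complex III and 0.12 in complex IV. It was larger in complex I (0.19) and complex II (0.14). No test of the shares of calls against the other complexes was run, and the part of precision in them was not tested.

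In the F1 head, the alpha subunit gene Atp5a1 (ENSMUSG00000025428.16) had 588 and 599 CPM in the KO libraries, against 524 and 532 CPM in the fl/fl libraries. The gene rose by 1.12-fold (95% interval 1.05 to 1.21; log2 fold change 0.17, SE 0.05, edgeR adjusted p = 0.0227). The beta subunit gene Atp5b, which carries the catalytic site and forms the hexamer with alpha, had 866 and 867 CPM in the KO libraries, against 840 and 852 CPM in the fl/fl libraries. Atp5b was the most abundant member and its change was bounded closely (0.03, 95% interval -0.05 to 0.12, edgeR adjusted p = 0.638), although both KO libraries lay above both fl/fl libraries. The ratio of Atp5a1 counts to Atp5b counts was 0.679 and 0.691 in the KO libraries and 0.624 and 0.625 in the fl/fl libraries, a description of unequal change within each library.

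The central stalk genes of the F1 part differed among themselves. Atp5c1 (ENSMUSG00000025781.15), the gamma subunit that turns inside the head, had 121 and 137 CPM in the KO libraries, against 106 and 101 CPM in the fl/fl libraries, a rise of 1.25-fold (95% interval 1.09 to 1.43; log2 fold change 0.32, SE 0.09, edgeR adjusted p = 0.0265). Atp5d (ENSMUSG00000003072.16), the delta subunit that joins gamma to the c ring, had 142 and 144 CPM in the KO libraries, against 121 and 119 CPM in the fl/fl libraries, a rise of 1.19-fold (95% interval 1.05 to 1.34; log2 fold change 0.25, SE 0.08, edgeR adjusted p = 0.0446). In both genes the KO libraries lay above the fl/fl libraries. Atp5e, the epsilon subunit, had 54.8 and 75.02 CPM in the KO libraries, against 64.7 and 66.3 CPM in the fl/fl libraries (-0.01, edgeR adjusted p = 0.964), with overlap.

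**Figure D1:**
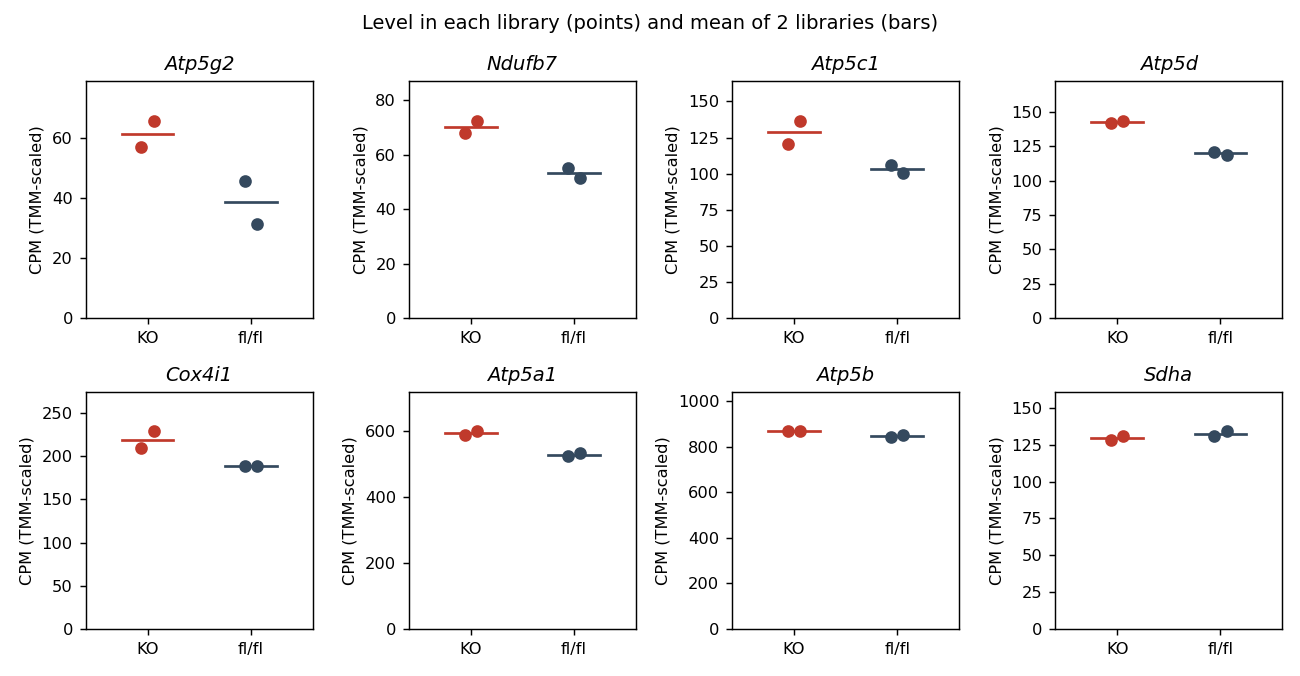
CPM of the 6 called members and of Atp5b and Sdha in each library, with Med16 KO left of Med16 fl/fl; points are libraries, bars are means of 2 libraries, and each axis starts at 0. The KO points lie above the fl/fl points in the 6 called genes and nearly level with them in Atp5b and Sdha.

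The c ring is made of identical subunits from 3 genes, Atp5g1, Atp5g2 and Atp5g3, whose products differ in the import peptide that is cut off. Atp5g2 (ENSMUSG00000062683.12) had 57.0 and 65.8 CPM in the KO libraries, against 45.6 and 31.5 CPM in the fl/fl libraries, and it rose by 1.59-fold (95% interval 1.25 to 2.03; log2 fold change 0.67, SE 0.17, edgeR adjusted p = 0.00966). Both KO libraries lay above both fl/fl libraries, and the fl/fl libraries differed from each other more than the KO libraries did. Atp5g1 had 38.1 and 41.2 CPM in the KO libraries, against 33.8 and 33.2 CPM in the fl/fl libraries (0.24, 95% interval -0.09 to 0.57, edgeR adjusted p = 0.326). Atp5g3 had 103 and 105 CPM in the KO libraries, against 89.6 and 104 CPM in the fl/fl libraries (0.10, edgeR adjusted p = 0.542).

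Atp5g2 supplied 28.8% and 31.1% of the counts of the 3 genes in the KO libraries, against 27.0% and 18.7% in the fl/fl libraries. Atp5g3 supplied the largest share in every library, with 52.0% and 49.4% in the KO libraries and 53.0% and 61.6% in the fl/fl libraries. The share of Atp5g1 lay between 19.2% and 20.0% in all 4. Per kb of transcript, with a length of 4715 bases for Atp5g1, its share lay between 3.503% and 3.679%. Atp5g2 then supplied 33.85% and 36.69% in the KO libraries, against 31.97% and 22.02% in the fl/fl libraries, and Atp5g3 again the most. The shift in shares thus rested mainly on fl/fl library 2.

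Among the peripheral stalk and membrane genes, Atp5j, which encodes coupling factor 6, stood furthest below the median of the complex. It had 64.5 and 49.4 CPM in the KO libraries, against 64.8 and 64.5 CPM in the fl/fl libraries (log2 fold change -0.18, edgeR adjusted p = 0.406). The peripheral stalk gene Atp5o was low and variable, with 8.99 and 8.68 CPM in the KO libraries and 8.92 and 3.48 CPM in the fl/fl libraries (0.51, edgeR adjusted p = 0.449). A second identifier with the symbol Atp5o had 0 counts, and the pair overlap in the annotation, so reads of this gene may have been left unassigned.

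Which of the 6 genes were called varied with the library left out, mostly in the fits without an fl/fl library. In fits without a library, the lone library of its genotype is assumed to vary like the pair of the other genotype. Without an fl/fl library that pair is KO, whose chi-square per degree of freedom was the larger (6.63, against 2.73 within fl/fl). The part of this difference in the lost calls was not tested. Without fl/fl library 1, only Atp5g2 was called among the members (log2 fold change 0.95, edgeR adjusted p = 0.000808), and Atp5a1, Atp5c1, Atp5d, Cox4i1 and Ndufb7 had log2 fold changes of 0.14, 0.34, 0.25, 0.20 and 0.43 with an adjusted p between 0.147 and 0.346. Without fl/fl library 2, no member was called, and Atp5g2, Atp5a1, Atp5c1, Atp5d, Cox4i1 and Ndufb7 had log2 fold changes of 0.42, 0.17, 0.27, 0.23, 0.21 and 0.34 with an adjusted p between 0.163 and 0.422. Calls over all genes also dropped, to 506 higher and 769 lower when fl/fl library 1 was left out and to 454 and 704 when fl/fl library 2 was, against 1109 and 1291 with all 4 libraries. Without KO library 2, 10 of 80 members were higher and 1 lower, where 12.4% of all genes were higher and 15.8% lower, and the calls of Cox4i1 (0.14, edgeR adjusted p = 0.163) and Atp5c1 (0.21, edgeR adjusted p = 0.08) ended. Without KO library 1, 10 members were higher, the 6 among them, and 4 were called lower, Ndufa12, Uqcrb, Cox7c and Atp5j, where 13.4% of all genes were higher and 15.7% lower. All 6 genes were positive in every one of these fits. Atp5g2 has 2 near-identical copies in the annotation and Atp5c1 has 1, so their counts are uncertain. Of the 69 tested members without such a copy, 4 were called higher (5.8%, against 8.5% of all genes tested) and 0 lower (against 9.89%). With all 4 libraries, DESeq2 did not call Cox4i1 and Atp5d, and without the low-count filter Cox4i1, Atp5d and Atp5a1 were not called.

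**Figure D2:**
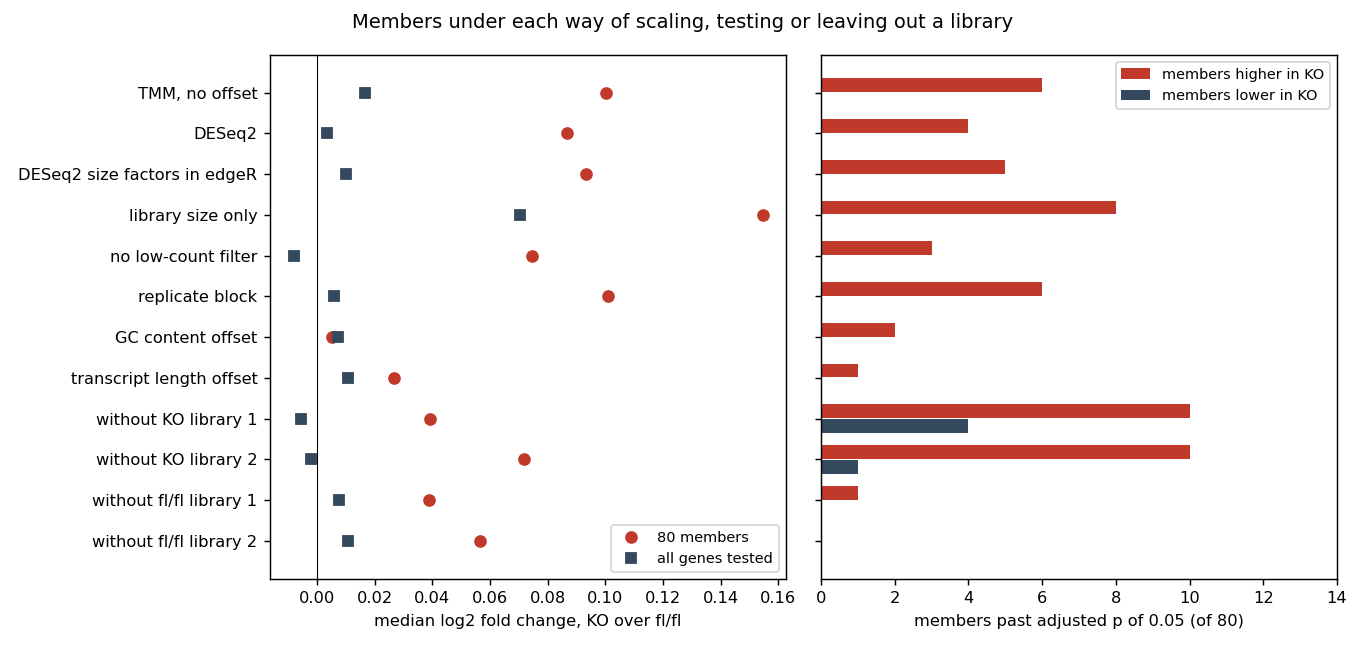
Left, median log2 fold change, Med16 KO over Med16 fl/fl, of the 80 members (circles) and of all genes tested (squares) under each way of scaling, testing or leaving out a library; right, the number of members past an adjusted p of 0.05 in each direction. The members' median stays above 0 throughout and meets the all-gene median with the GC content offset, and the number called higher runs between 0 and 10.

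Transcript composition moved with genotype across all genes. In bins of transcript GC content, chosen after the values were seen, the median log2 fold change of all genes tested was -0.21 under 40% GC, -0.16 between 40 and 45%, -0.07 between 45 and 50%, 0.07 between 50 and 55%, 0.22 between 55 and 60% and 0.30 at 60% and above. Members followed a like order, with medians of -0.01 for 11 members, 0.00 for 21, 0.08 for 24, 0.15 for 21 and 0.25 for 3, and none under 40%. Across the 80 members, which are not independent replicates and share the same libraries, the log2 fold change and GC content had a Pearson's r of 0.40 and a Spearman's rho of 0.37. Of the 6 called members, 4 lay above 55% GC.

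With an offset for GC content, fitted over all genes, the members' median log2 fold change was 0.01, as was that of all genes tested, and 2 members were called higher, Atp5a1 (0.15) and Atp5c1 (0.37). Cox4i1, Atp5d, Ndufb7 and Atp5g2 then had log2 fold changes of 0.00, 0.01, 0.16 and 0.48 (edgeR adjusted p of 0.987, 0.975, 0.414 and 0.0613). With an offset for transcript length the members' median was 0.03 and Atp5g2 was the 1 member called (0.61, edgeR adjusted p = 0.0143). Member transcripts were short, with a median of 824 bases against 2700 over all genes tested. The part of GC content and length in the members' change was not tested beyond these offsets.

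**Figure D3:**
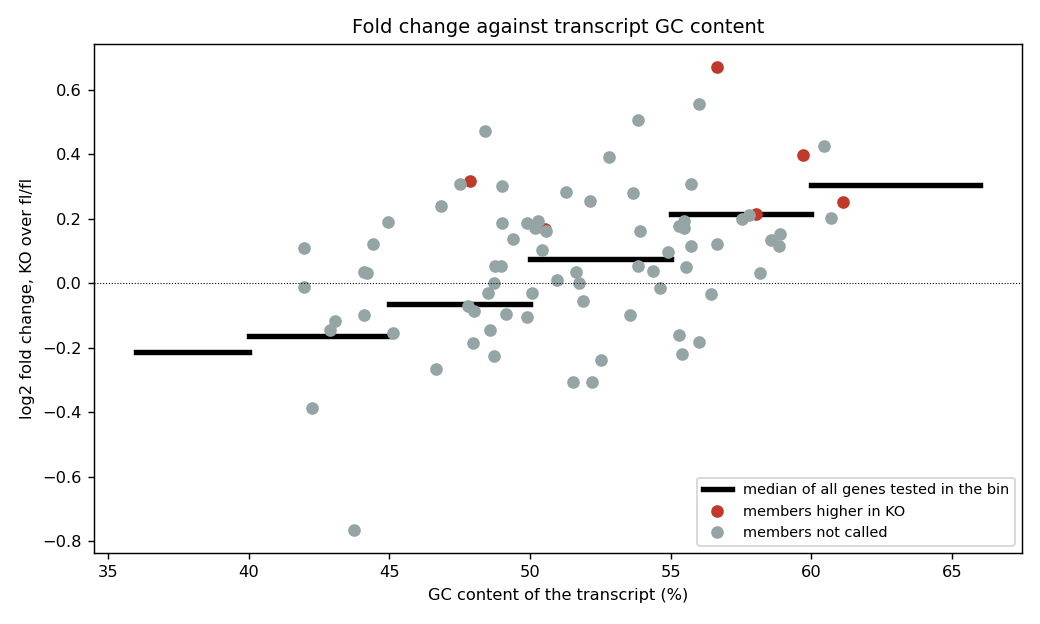
Log2 fold change, Med16 KO over Med16 fl/fl, of each tested member (points, red where called higher) against the GC content of its transcript in percent; bars are medians of all genes tested in each GC bin, with the outer bins drawn short. Bars climb with GC content, and 4 of the 6 red points lie above 55%.

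Summed over the 92 rows, members made up 0.612% and 0.605% of the assigned counts in the KO libraries and 0.555% and 0.552% in the fl/fl libraries. In TMM-scaled CPM the sums were 5972 and 6004 in the KO libraries, against 5673 and 5645 in the fl/fl libraries, a ratio of 1.06. The ratios by complex were 1.06 for complex I, 1.02 for complex II, 1.04 for complex III, 1.06 for complex IV and 1.06 for complex V. The libraries did not overlap in complex V, with 2617 and 2673 CPM in the KO libraries against 2487 and 2487 CPM in the fl/fl libraries, nor in complexes I, III and IV, while those of complex II did. The sums share the same libraries and scaling and are not separate observations. Of single genes tested, 29.4% lay above in both KO libraries. No sum was taken with the GC content offset, where the medians of members and of all genes were both 0.01. In bulk RNA, fewer cells of a type and less RNA per cell cannot be told apart, and the marker sums of neutrophils, of monocytes and macrophages, and of megakaryocytes were higher in the KO libraries. The megakaryocyte and platelet markers summed to 145 and 148 CPM in the KO libraries, against 58.2 and 49.9 CPM in the fl/fl libraries, with 5 of 6 tested markers higher and Gp1bb at 0 in all 4. Stroma and endothelium markers summed to 224 and 277 CPM in the KO libraries, against 134 and 139 CPM in the fl/fl libraries, with 2 of 4 tested higher. Early progenitor markers summed to 197 and 148 CPM in the KO libraries, against 139 and 141 CPM in the fl/fl libraries, with 2 of 4 higher, and T and NK cell markers to 40.9 and 42.7 CPM in the KO libraries, against 33.7 and 31.5 CPM in the fl/fl libraries, with 0 of 2 called. The sums of erythroid markers, of B cell markers and of eosinophil, basophil and mast cell markers overlapped between genotypes. Of the 8 erythroid markers, 2 were higher and 6 lower in the KO libraries. The part of other cells in the members' change was not tested.

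Levels between genes were compared as CPM per kb of transcript, as means over the 4 libraries. The median over tested members was 28.2 for complex I, 42.0 for complex II, 70.2 for complex III, 85.4 for complex IV and 99.6 for complex V. The highest member was Ndufb7 in complex I (99.1 CPM per kb), Sdhd in complex II (46.0), Uqcrh in complex III (167), Cox6a1 in complex IV (356) and Atp5b in complex V (447). Within each complex the members spread widely, in complex I between 0.404 CPM per kb for Ndufb2 and that of Ndufb7. These levels rest on 1 transcript length per gene, so the order of near neighbours is not firm. The low extremes are uncertain too. Ndufb2 had 5 and 13 counts in the KO libraries and 13 and 18 in the fl/fl libraries. Its level was divided by a length of 4371 bases, where the median of members was 824. The lowest member of complex V, Atp5g1 (7.76 CPM per kb), was divided by 4715 bases.

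**Figure D4:**
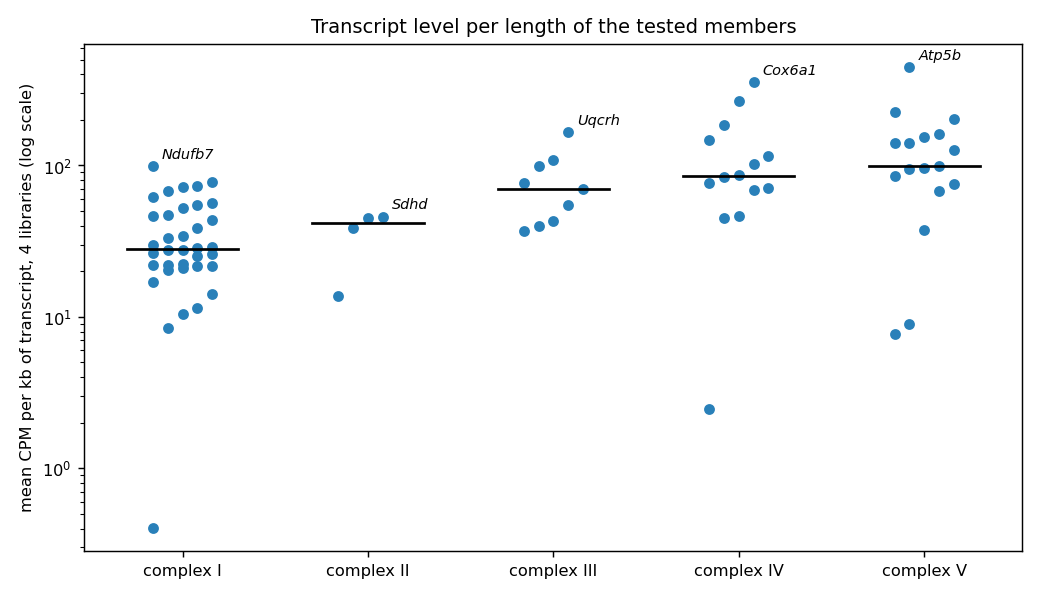
Mean CPM per kb of transcript over the 4 libraries for each tested member (points, log axis), by complex, with the median as a bar and the highest member named. Medians climb in order of complex number, with 28.2 for complex I and 99.6 for complex V, while the points of neighbouring complexes overlap.

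Genes outside the symbol rule that serve the same pathway were described by counts alone. Ndufab1, the acyl carrier protein that is also a complex I subunit, had 36.2 and 30.9 CPM in the KO libraries, against 29.6 and 33.1 CPM in the fl/fl libraries, with overlap (log2 fold change 0.10, edgeR adjusted p = 0.751). None of 14 tested genes of cytochrome c and coenzyme Q was called, and Cycs, which encodes cytochrome c, had a log2 fold change of -0.10.

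Assembly factors were counted for each complex, and differences between these counts were not tested. Beside them, 8.5% of all genes tested were higher and 9.89% lower. For complex I, 0 of 15 were higher and 1 lower, Tmem186 (log2 fold change -0.90, edgeR adjusted p = 0.0193), which acts in building the membrane arm. For complex II, 0 of 4 were called. For complex III, 2 of 6 were higher and the median was 0.91: Uqcc2 had 16.01 and 14.1 CPM in the KO libraries, against 8.64 and 6.24 CPM in the fl/fl libraries (log2 fold change 1.02, edgeR adjusted p = 0.0241), and Uqcc3 had 12.4 and 11.6 CPM in the KO libraries, against 4.53 and 7.11 CPM in the fl/fl libraries (1.04, edgeR adjusted p = 0.0406). Both factors, needed for making cytochrome b, rose while no nuclear subunit of complex III was called. For complex IV, 1 of 26 was higher, Coa5 (0.40, edgeR adjusted p = 0.0352), and for complex V, 0 of 6 were called. With the GC content offset, Uqcc2 (0.79, edgeR adjusted p = 0.083) and Uqcc3 (0.96, edgeR adjusted p = 0.0681) were no longer called, and neither was called without fl/fl library 1 (1.26 and 0.74) or fl/fl library 2 (0.79 and 1.39). Tmem186 and Coa5 were likewise not called without fl/fl library 1 (-0.75 and 0.36) or fl/fl library 2 (-1.06 and 0.41).

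Among 14 tested regulators of mitochondrial genes, 0 were higher and 1 was lower, where 8.5% of all genes tested were higher and 9.89% lower. Gabpb2, a beta subunit of the ETS factor GABP, had 142 and 144 CPM in the KO libraries, against 215 and 215 CPM in the fl/fl libraries, without overlap (log2 fold change -0.59, SE 0.07, edgeR adjusted p = 2.7e-05). Esrra, the nuclear receptor ERR alpha, had 21.2 and 22.4 CPM in the KO libraries, against 15.4 and 11.7 CPM in the fl/fl libraries (0.68, SE 0.23, edgeR adjusted p = 0.0533). Esrra was called with library size as the only scaling (0.73, edgeR adjusted p = 0.0371), with the replicate block (0.69, edgeR adjusted p = 0.0336) and without KO library 1 (0.70) or KO library 2 (0.63), and with the GC content offset its log2 fold change was 0.43 (edgeR adjusted p = 0.242).

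Among 18 tested citric acid cycle genes, 1 was higher, the malate dehydrogenase gene Mdh2 (log2 fold change 0.31, edgeR adjusted p = 0.0148), and 1 was lower, the dihydrolipoamide dehydrogenase gene Dld (-0.40, edgeR adjusted p = 0.0232). Of 23 tested import genes, 3 were higher and 0 lower, where 8.5% of all genes tested were higher and 9.89% lower: Timm13, a chaperone of the intermembrane space (0.63), Timm50, a receptor of the inner membrane translocase (0.47), and Tomm40, the channel of the outer membrane (0.47). With the GC content offset, none of these 5 genes was called (Mdh2 0.15, Dld -0.18, Timm13 0.41, Timm50 0.26, Tomm40 0.23). Without fl/fl library 2 none of the 5 was called either, with log2 fold changes of 0.24, -0.41, 0.42, 0.53 and 0.35 in the same order. Without fl/fl library 1, Dld (-0.41), Timm50 (0.40) and Tomm40 (0.58) were not called, and without KO library 2, Timm50 (0.30) and Tomm40 (0.31) were not.

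Of 13 subunits encoded in mitochondrial DNA, 10 were tested, with 5 higher and 0 lower. Over all genes tested, 8.5% were higher and 9.89% lower. The 5 were all of complex I. These were mt-Nd1 (log2 fold change 0.46), mt-Nd2 (0.33), mt-Nd4 (0.26), mt-Nd5 (0.28) and mt-Nd6 (0.28). The most abundant, mt-Co1, encodes the catalytic subunit of complex IV and had 4617 and 4722 CPM in the KO libraries, against 4736 and 5068 CPM in the fl/fl libraries (-0.07). Calls of mt-Nd4 (0.18), mt-Nd5 (0.17) and mt-Nd6 (0.24) ended without fl/fl library 1, and that of mt-Nd6 also without KO library 2 (0.14) or fl/fl library 2 (0.30). With the GC content offset mt-Co1 was positive and called (0.15, edgeR adjusted p = 0.00149), whereas it was negative and called with the length offset (-0.12, edgeR adjusted p = 0.0236), without the low-count filter (-0.096), without KO library 2 (-0.099) and without fl/fl library 1 (-0.13). Whether these subunits differed from the nuclear complex I members was not tested. Adenine nucleotide and phosphate carriers had 0 of 6 tested genes called and a median log2 fold change of 0.11.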

How the data were processed

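Poly(A) RNA of 4 libraries was analysed, 2 labelled Med16 KO and 2 labelled Med16 fl/fl. The deposited values are raw counts of reads for each gene, in a separate table for every library. FastQC 0.11.7, HISAT2 2.1.0, HTSeq 0.12.4, DESeq2, HOMER and build GRCm39 are named per the submitters' processing notes. Strand setting and annotation release are not named there, so overlapping genes on opposite strands and near-identical copies are uncertain; 11 tested members have such a copy (at least 95% identity over at least 50% of the transcript). The 5 rows that name no gene were left out of library sizes. In KO 1, KO 2, fl/fl 1 and fl/fl 2 they held, as percent of reads, 35.8, 35.8, 36.0 and 36.7 without feature, 2.96, 2.93, 2.54 and 2.58 ambiguous, 1.69, 1.70, 1.79 and 1.96 of low quality, 2.69, 3.27, 1.05 and 0.826 not aligned and 24.3, 23.6, 26.4 and 25.3 without a unique alignment.

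Counts were tested in R 4.3.3 with edgeR 4.0.16 (filterByExpr, TMM, quasi-likelihood test, genotype as the only term, two-sided), with Benjamini-Hochberg adjustment over 13052 genes and a threshold of 0.05. Libraries of a genotype varied with a common coefficient of 0.125; residual degrees of freedom were 2 and prior ones 13.1. CPM is relative to the TMM-scaled sum over genes tested. SE is the log2 fold change divided by the square root of F, and 95% intervals use the t distribution on these degrees of freedom. At these depths a count of 0 allows up to 3 counts, 0.421 to 0.441 CPM; this covers counting error only. Transcript length and GC content came from 1 GENCODE M21 transcript per gene (GRCm38, matched by identifier for 98.4% of genes tested), and promoters from RefSeq windows of GRCm38.p6; coordinates are given for these windows only. Alternatives were DESeq2 1.42.0, its size factors in edgeR, library size alone, no low-count filter, a replicate block, GC content and length offsets (natural splines, 5 degrees of freedom) and each library left out. The procedure was tested on simulated counts.

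Members, lists and named genes were chosen with earlier results of these data known. Named were, per complex, the 3 members with the smallest adjusted p, the most abundant, that furthest from the median with opposite sign, called members and isoform sets; of the related lists, the called genes and a few others. Some genes are not reported here.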

Additional observations from a re-analysis of the deposited data

How the results depend on the processing

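With all 4 libraries, the 80 members had 6 called higher, 0 lower and a median log2 fold change of 0.10. The count of members called higher was 3 without the low-count filter, 2 with the GC content offset and 1 with the length offset. The members' median was 0.15 with library size alone, 0.075 without the filter, 0.0051 with the GC offset and 0.027 with the length offset. Complex I had 2 higher with library size alone and 0 with either offset, with medians of 0.11 (library size), 0.0079 (GC) and 0.0029 (length). Complex III had 1 higher with library size alone, and medians of -0.071 (GC) and 0.038 (length). Complex IV had 0 higher with DESeq2, with DESeq2's size factors, without the filter and with either offset, and medians of 0.031 (GC) and 0.041 (length). Complex V had 2 higher without the filter, 2 with the GC offset and 1 with the length offset, and medians of 0.16 (library size), 0.044 (GC) and 0.021 (length). The cause was not tested. Library size alone called 1365 of all genes higher and 1055 lower, a share of 56.4% higher in place of 46.2%.

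With 1 library left out, all genes called ran from 454 to 1839 higher and from 704 to 2172 lower. Members ran from 0 to 10 higher and from 0 to 4 lower, with medians from 0.039 to 0.072. Complex I ran from 0 to 5 higher and 0 to 1 lower (medians 0.0024 to 0.069), complex III from 0 to 1 and 0 to 1 (medians -0.021 to 0.10), complex IV from 0 to 2 and 0 to 1 (medians 0.021 to 0.17) and complex V from 0 to 4 and 0 to 1 (medians 0.036 to 0.17). Complex II stayed at 0 called in both directions, with medians from -0.03 to 0.15.

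The labels do not pair samples by the replicate numbers in the titles. Deviations of same-numbered libraries had r = -0.01 over all genes. Over members, which share the same libraries, r was 0.34, and a pairing was not tested beyond the replicate block. With the replicate block, 6 members were called higher and 0 lower, the 6 of the fit without it.

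These log2 fold changes, of genes not called with all 4 libraries, changed sign. With DESeq2: Sdhc -0.013 and Cox6b1 -0.0044. With DESeq2's size factors: Sdhc -0.0063. Without the filter: Sdhc -0.025 and Cox6b1 -0.016. With the block: Sdhc -0.0011. With library size alone: Sdha 0.024, Cox7b 0.041 and Atp5e 0.038. With the length offset: Cox6b1 -0.065 and Atp5b -0.017. With the GC offset: Ndufv1 -0.067, Sdha 0.0030, Sdhb -0.048, Uqcrc1 -0.0052, Cox6a1 -0.11, Cox6b1 -0.024, Cox7b 0.19, Cox8a -0.086, Ndufa4 0.058, Atp5b -0.016, Cycs 0.12 and mt-Co1 0.15. With 1 library left out the ranges that crossed 0 were -0.015 to 0.22 for Ndufv1, -0.016 to 0.18 for Sdhb, -0.16 to 0.12 for Sdhc, -0.035 to 0.27 for Sdhd, -1.34 to 1.15 for Cox6a2, -0.093 to 0.079 for Cox6b1, -0.16 to 0.025 for Cox7a2, -0.11 to 0.056 for Cox7b, -0.014 to 0.20 for Atp5g3, -0.27 to 0.18 for Atp5e, -0.032 to 0.20 for Ndufab1 and -0.35 to 0.10 for Cycs.

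Further calls of related genes that ended were Coa5 (0.37) without the filter, Tomm40 (0.46) and mt-Nd5 (0.27) with DESeq2, and Uqcc3 (0.99), Timm50 (0.43), Tomm40 (0.42) and mt-Nd6 (0.19) with the length offset.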
